A study of Oryza sativa with 48 samples.

Results

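The genes described here are 9 rice genes of light perception and chloroplast development, taken by name and locus identifier from the 37830 rows of a leaf RNA sequencing count table. They are the phytochromes phyA (OS03G0719800), phyB (OS03G0309200) and phyC (OS03G0752100), the cryptochromes CRY1a (OS02G0573200), CRY1b (OS04G0452100) and CRY2 (OS02G0625000), the ubiquitin ligase gene COP1 (OS02G0771100), and the transcription factor genes GLK1 (OS06G0348800) and GLK2 (OS01G0239000). All 9 had enough counts to be tested, among 21453 genes that did. The rule that takes them uses no measured level, but the 9 genes were chosen with earlier results of these data known. Whole rice plants of the cultivar M202 and of its near-isogenic line M202(Sub1) were put under water for 0, 1, 3 or 6 days. M202(Sub1) carries the submergence tolerance gene SUB1A, which M202 lacks and which was not analysed here. At each time the fifth leaf, which was elongating, was taken apart from the lower leaves, which were no longer elongating. This gives 16 groups of 3 independent biological replicates, or 48 libraries.

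Phytochromes are receptors of red and far-red light, and cryptochromes are receptors of blue light. In the light both restrain COP1, which in darkness marks transcription factors such as HY5 for breakdown, and both act on the phytochrome-interacting bHLH factors; most of this is known from Arabidopsis. GLK factors switch on the genes for chlorophyll synthesis and for the antenna proteins that hold chlorophyll, and in rice GLK1 and GLK2 act redundantly in chloroplast development.

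Levels are in CPM, the count as a share of the effective library size, and are compared within a gene, since gene lengths were not used. Changes are log2 ratios ± SE from 1 edgeR quasi-likelihood fit of all 16 groups, and a change was called when its p, adjusted over all 21453 tested genes, was below 0.05. Library totals lay between 4873142 and 10369501 counts, and replicates correlated across genes at 0.9596 to 0.9809. The leaf markers RCA, CAB2R and PPDKB were counted in every library, while 5 of the 6 markers of root and shoot meristem had no count in 34 or more of the 48 libraries. The exception, LSI1, reached at most 6.64 CPM. The leaf marker RCA, rubisco activase, fell in all 12 comparisons of a submerged day with day 0, by between 0.95 and 4.31 on the log2 scale. In bulk leaves, fewer cells of a type and less RNA per cell cannot be told apart. No leaves kept in air on days 1, 3 and 6 are among the groups, so submergence, leaf age and sampling day cannot be told apart. The hour of sampling and the light under water are not given in the labels.

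Under water the transcripts of these genes moved in opposite directions. CRY2, CRY1b and GLK1 rose in all 12 comparisons with day 0, COP1 fell in all 12 and CRY1a fell in 11. phyA rose in 8 and phyC in 9. GLK2 fell in 7, all on days 1 and 3, and phyB rose in 4, all in non-elongating leaves. Over the 9 genes and 12 comparisons, 58 changes were called higher, 31 lower and 19 were not called. This is 82.4%, whereas 49.9 to 56% of all tested genes were called in the same comparisons (median 53%). In non-elongating leaves of M202, 7, 8 and 6 of the 9 were called on days 1, 3 and 6, where 52.5%, 51.2% and 53.4% of all tested genes were. The numbers in those of M202(Sub1) were 8, 9 and 8, against 56%, 52.3% and 51% of all tested genes. Among elongating leaves, 7 were called on each day in M202, against 53.8%, 49.9% and 53.5%, and 7, 8 and 7 in M202(Sub1), against 55.3%, 52.6% and 53.3%. By direction, 25.9 to 27.9% of all tested genes were called higher and 23.9 to 28.8% lower. For 53.5 to 62.1% of them the 3 submerged libraries of a comparison did not overlap those of day 0. The 3 days of a series share their day 0 libraries, so the 12 comparisons are not independent of each other.

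**Figure D1:**
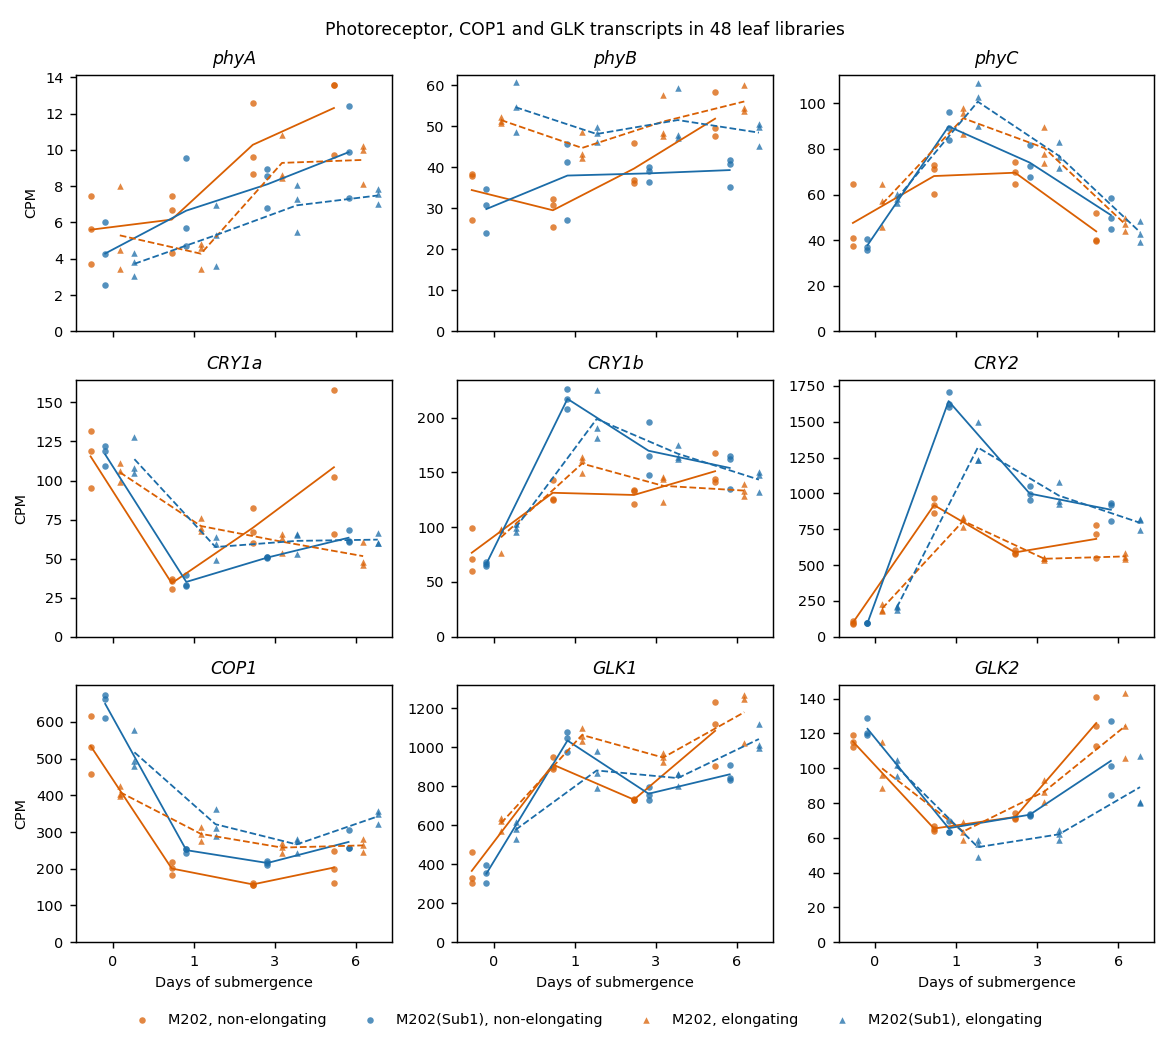
Level of each gene in CPM (y axis, from 0, own scale per gene) against days of submergence (x axis, not to scale in time). Points are the 48 libraries, shifted sideways by group, and lines join the means of 3 libraries; CRY2 rises most at day 1, while COP1 and CRY1a drop from their day 0 level.

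CRY2, a blue-light receptor known in rice for promoting flowering, had the largest response of the 9. Its 3 libraries of non-elongating leaves of M202(Sub1) held 97.5, 92.7 and 97.5 CPM at day 0 and 1620, 1600 and 1710 CPM at day 1. In the same leaves of M202 they held 112, 85.5 and 97.7 CPM at day 0 and 920, 865 and 969 CPM at day 1. In elongating leaves of M202 the values went from 181, 226 and 184 CPM to 821, 766 and 835 CPM, and in those of M202(Sub1) from 217, 206 and 185 CPM to 1500, 1230 and 1230 CPM. The submerged libraries lay above the day 0 libraries of their own series without overlap in all 12 comparisons. The change at day 1 was 4.10 ± 0.13 (adjusted p = 9.56e-30), a 17.2-fold rise, in non-elongating leaves of M202(Sub1), and 3.22 ± 0.12 (adjusted p = 2.24e-26), a 9.33-fold rise, in those of M202. In elongating leaves it was 2.71 ± 0.12 in M202(Sub1) and 2.03 ± 0.12 in M202. Between day 1 and day 3 CRY2 fell again in all 4 series, by 0.43 to 0.72 on the log2 scale. In this step 4 of the 9 were called in non-elongating leaves of each genotype, against 16.3% of all tested genes in M202 and 16.9% in M202(Sub1), and 3 and 1 in elongating leaves, against 22.3% and 13.1%. The step of CRY2 in elongating leaves of M202(Sub1), -0.43 ± 0.11 (adjusted p = 0.00683), was no longer called without replicate 1 of day 1 (-0.30, adjusted p = 0.116), nor when the groups were fitted alone (-0.43, adjusted p = 0.0774). At day 6 CRY2 still stood 1.51 to 3.21 above day 0.

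CRY1b and CRY1a, paralogous blue-light receptors that restrain coleoptile and leaf elongation in rice, moved apart. CRY1b went from 64.8, 68.1 and 66.6 CPM at day 0 to 208, 226 and 217 CPM at day 1 in non-elongating leaves of M202(Sub1), a change of 1.71 ± 0.13 (adjusted p = 5.99e-16). In the other 3 series its day 1 change lay between 0.77 and 1.00, and at day 6 it lay between 0.53 and 1.21 in all 4. In each of the 12 comparisons the CRY1b libraries stood apart from those of day 0. CRY1a fell most in non-elongating leaves at day 1, from 119, 132 and 95.3 CPM to 35.4, 37.1 and 30.3 CPM in M202 and from 109, 122 and 119 CPM to 32.5, 33.4 and 39.4 CPM in M202(Sub1). These are changes of -1.76 ± 0.17 (adjusted p = 2.90e-12) and -1.73 ± 0.17 (adjusted p = 6.10e-12). In elongating leaves the day 1 values were -0.57 ± 0.16 in M202 and -0.98 ± 0.17 in M202(Sub1), and they stood at -1.03 ± 0.17 and -0.87 ± 0.16 at day 6. The 12th comparison, M202 non-elongating leaves at day 6, held 102, 158 and 65.5 CPM, a spread that overlapped day 0, and was not called (-0.09 ± 0.16, adjusted p = 0.67). Without replicate 2, the library at 158 CPM, the change was called lower (-0.43, adjusted p = 0.015). CRY1a and CRY1b may share reads that the counts do not resolve.

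COP1, the E3 ligase gene, was highest before submergence in each of the 4 series. Non-elongating leaves of M202 held 457, 532 and 615 CPM of it at day 0, between 182 and 218 CPM at day 1, 156, 155 and 161 CPM at day 3, and 162, 199 and 249 CPM at day 6. In those of M202(Sub1) it held 663, 611 and 674 CPM at day 0, 244, 254 and 254 CPM at day 1, 210, 215 and 222 CPM at day 3, and 256, 257 and 306 CPM at day 6. No submerged library reached the lowest day 0 library of its series. The strongest fall, at day 3, was -1.76 ± 0.12 (adjusted p = 2.60e-17) in M202 and -1.59 ± 0.12 (adjusted p = 6.38e-16) in M202(Sub1). In elongating leaves COP1 stood at 404, 397 and 426 CPM at day 0 in M202 and at 579, 480 and 493 CPM in M202(Sub1), and fell by 0.47 to 0.96 on the log2 scale over the 3 days.

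Among 5 listed partners of COP1 in its ligase complexes, 3 rose in some of the 12 comparisons, 1 fell in some and 1 was called in none. In non-elongating leaves of M202(Sub1) at day 1, 2 rose and 1 fell (median change 0.16, against -0.02 over all tested genes), where 27.1% of all tested genes were called higher and 28.8% lower. DDB1, the adaptor of the CUL4 ligase, rose there by 0.90 ± 0.10 (adjusted p = 6.77e-11), and it rose in 11 of the 12 comparisons. CUL4, the cullin scaffold itself, was called in none of them, with changes between -0.21 and 0.28. DET1, a partner that represses light responses, fell by 0.49 on the log2 scale at that day (adjusted p = 7.33e-04), and fell in 4 comparisons, all in non-elongating leaves. SPA1 and SPA2, COP1 cofactors, rose in 5 and 4 comparisons. Of the 3 bZIP factors related to HY5, the classical substrate of COP1 in Arabidopsis, bZIP48 fell in all 12 comparisons, by 1.84 to 3.88 on the log2 scale, and bZIP18 in 10. The third, bZIP01, fell in only 2, with changes between -3.18 and 0.57. Both bZIP48 and bZIP18 are low transcripts under water, and bZIP48 averaged 1.60 CPM at day 1 in non-elongating leaves of M202(Sub1), from 23.4 CPM at day 0.

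**Figure D2:**
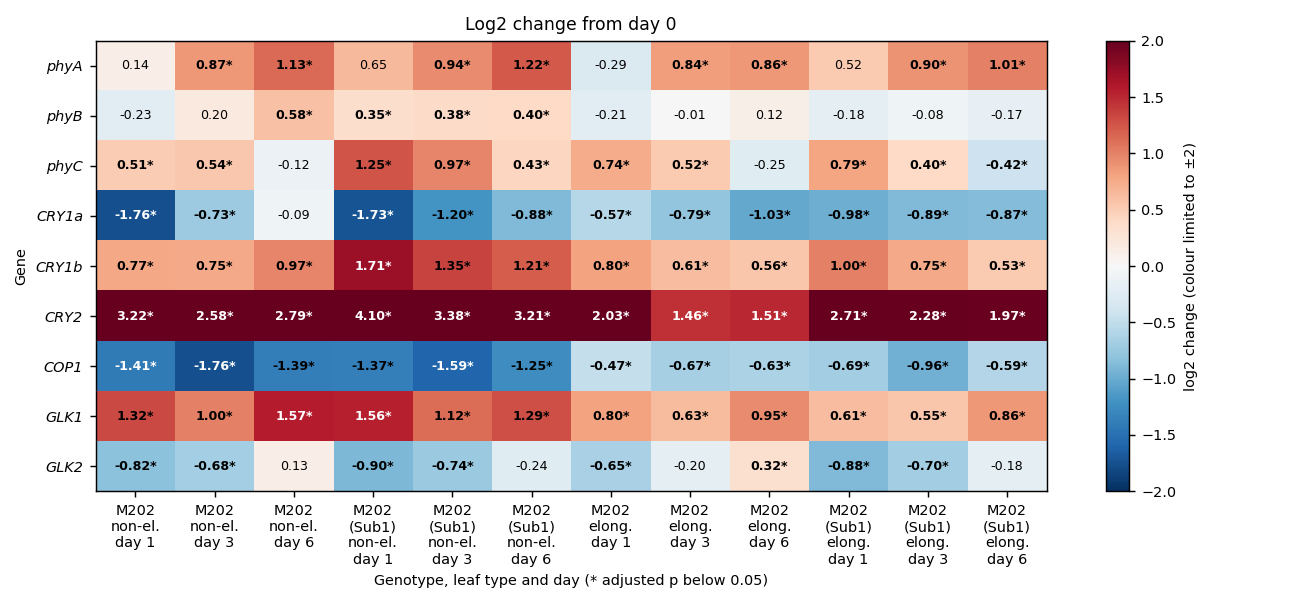
Log2 change from day 0 (colour, limited to ±2, and printed number) of each gene (rows) in the 12 comparisons of genotype, leaf type and day (columns); a star and bold print mark an adjusted p below 0.05. The rows of CRY2, CRY1b and GLK1 are red throughout and the row of COP1 is blue throughout, with paler colours on the right, in elongating leaves.

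phyA, the far-red and very-low-light receptor, had the fewest counts of the 9, 18 to 109 per library. Levels in non-elongating leaves of M202 were 5.65, 3.69 and 7.46 CPM at day 0 and 9.72, 13.6 and 13.6 CPM at day 6, a change of 1.13 ± 0.29 (adjusted p = 8.37e-04). In those of M202(Sub1) it held 2.58, 4.27 and 6.02 CPM at day 0 and 7.34, 12.4 and 9.87 CPM at day 6, a change of 1.22 ± 0.30 (adjusted p = 7.10e-04). The day 0 and day 6 libraries did not overlap. In elongating leaves the day 6 change was 0.86 ± 0.30 (adjusted p = 0.0121) in M202 and 1.01 ± 0.31 (adjusted p = 0.00458) in M202(Sub1). At day 1 phyA was called in none of the 4 series, with changes of -0.29 to 0.65. Each of its 4 calls at day 3, with changes of 0.84 to 0.94, was lost when 1 library was left out: replicate 2 of day 0 or replicate 3 of day 3 in M202 non-elongating leaves (adjusted p 0.0646 to 0.0745, weakest change 0.68), replicate 1 of day 0 in M202(Sub1) non-elongating leaves (0.67, adjusted p = 0.0911), replicates 2 or 3 of day 0 or replicate 1 of day 3 in M202 elongating leaves (adjusted p 0.0837 to 0.145, weakest change 0.59), and replicate 2 of day 0 or replicate 3 of day 3 in M202(Sub1) elongating leaves (adjusted p 0.0621 to 0.0653, weakest change 0.77). The day 6 call in M202 elongating leaves was lost without replicate 2 or 3 of day 0 (adjusted p 0.0716 to 0.111, weakest change 0.62).

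phyB, the main red-light receptor of green leaves, had the smallest ratio of highest to lowest group mean of the 9, 1.9, with means between 29.6 and 56.1 CPM. In elongating leaves no change from day 0 was called, and the 6 changes lay between -0.21 and 0.12. In non-elongating leaves of M202 the libraries rose from 37.9, 27.1 and 38.4 CPM at day 0 to 47.6, 49.7 and 58.3 CPM at day 6, without overlap, a change of 0.58 ± 0.15 (adjusted p = 6.79e-04). The 3 changes in non-elongating leaves of M202(Sub1), 0.35, 0.38 and 0.40 ± 0.15 for days 1, 3 and 6, passed the threshold with adjusted p between 0.0219 and 0.0435. Each was lost when the groups were fitted alone, with adjusted p = 0.119, 0.0674 and 0.0789. Each was also lost without replicate 1 of day 0 or without single other libraries: replicate 2 of day 0 and replicates 2 and 3 of day 1 (adjusted p 0.0573 to 0.387, weakest change 0.17), replicates 1 and 3 of day 3 (0.0734 to 0.205, weakest 0.25), and replicates 2 and 3 of day 6 (0.0751 to 0.192, weakest 0.26).

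phyC, a red and far-red receptor that in rice delays flowering together with phyB, rose early and then returned. Its libraries of non-elongating leaves of M202(Sub1) held 40.4, 35.8 and 37.2 CPM at day 0, 84.1, 89.3 and 96.3 CPM at day 1, 81.8, 67.9 and 72.4 CPM at day 3 and 58.6, 44.8 and 49.7 CPM at day 6. In elongating leaves of M202(Sub1) it held 57.9, 56.5 and 60.3 CPM at day 0, 90.3, 109 and 103 CPM at day 1 and 48.6, 42.7 and 39.3 CPM at day 6. The day 1 libraries lay above day 0 in both, and at day 6 those of elongating leaves lay below it. The day 1 change was 1.25 ± 0.14 (adjusted p = 3.06e-10) in non-elongating and 0.79 ± 0.14 (adjusted p = 3.98e-06) in elongating leaves of M202(Sub1). In M202 it was 0.51 ± 0.14 and 0.74 ± 0.14. From day 3 to day 6 phyC fell in all 4 series, by 0.54 to 0.82 on the log2 scale. In this step 6 of the 9 were called in non-elongating leaves of M202 and 2 in those of M202(Sub1), against 29.2% and 7.43% of all tested genes, and 3 in elongating leaves of each genotype, against 28.3% and 13.9%. The step of -0.54 in non-elongating leaves of M202(Sub1) was lost without replicate 1 of day 3 or replicate 2 or 3 of day 6 (adjusted p 0.055 to 0.0813, weakest -0.45). In M202(Sub1), the day 6 change of 0.43 ± 0.15 in non-elongating leaves was lost without replicate 2 of day 0 or replicate 1 of day 6 (adjusted p 0.0513 to 0.116, weakest 0.31), the day 6 change of -0.42 ± 0.14 in elongating leaves without replicate 3 of day 6 (-0.36, adjusted p = 0.0578), and their day 3 change of 0.40 without replicate 1 of day 3 (0.34, adjusted p = 0.0661).

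Phytochromes need a bilin chromophore. HY2, the reductase of its last step, fell in all 12 comparisons, by 0.43 to 1.21 on the log2 scale. SE5_HO1, the heme oxygenase of the step before, fell in 10, and HO2, a related gene of the heme oxygenase family, rose in 10. Among the phytochrome-interacting-factor-like genes, PIL14 and PIL11 rose in all 12, PIL14 by 1.47 to 3.02, and PIL16 fell in 11. PIL13 rose in 9 comparisons and fell in 2, the day 6 comparisons of elongating leaves, where its change was -1.47 in M202 and -0.71 in M202(Sub1). The counts in non-elongating leaves of M202(Sub1) at day 1 were 3 rising and 2 falling of 6, with a median of 0.56 against -0.02 over all tested genes. Of all tested genes, 27.1% were called higher there and 28.8% lower.

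The other blue-light receptors also split. PHOT1a and PHOT1b, receptors of phototropism and chloroplast movement, rose in all 12 comparisons. PHOT1a changed by 2.97 to 5.01 and PHOT1b by 2.99 to 4.46. PHOT2, the receptor of the avoidance movement in strong light, fell in all 12, by 0.90 to 2.02 on the log2 scale. PHOT1a went from 22.4 ± 4.69 to 434 ± 35.7 CPM (SD, n = 3) in non-elongating leaves of M202(Sub1) at day 1. PHOT1a and PHOT1b are a duplicated pair and may share reads, so their split is uncertain. FKF1, a blue-light receptor of the clock and flowering, rose in 5 comparisons and fell in 3. Its changes at day 1 were 1.61 in non-elongating and 1.68 in elongating leaves of M202(Sub1). ZTL1 and ZTL2, also in this list, moved less: each rose in 4 comparisons, and ZTL2 fell in 1. Their changes lay between -0.27 and 0.57. PHOT2, FKF1, ZTL1 and ZTL2 are named after their values were seen.

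GLK1 rose in all 12 comparisons. Its libraries of non-elongating leaves of M202 held 463, 305 and 329 CPM at day 0, 888, 897 and 949 CPM at day 1, 734, 729 and 731 CPM at day 3 and 903, 1230 and 1120 CPM at day 6. In elongating leaves of M202 it held 622, 572 and 636 CPM at day 0 and 1250, 1270 and 1020 CPM at day 6. Submerged and day 0 libraries stood apart in all 12. The largest changes were 1.57 ± 0.12 (adjusted p = 4.88e-15) in non-elongating leaves of M202 at day 6 and 1.56 ± 0.12 (adjusted p = 4.33e-15) in those of M202(Sub1) at day 1, and the smallest was 0.55 ± 0.12 (adjusted p = 1.75e-04) in elongating leaves of M202(Sub1) at day 3.

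GLK2, its paralogue, went the other way at first. In non-elongating leaves of M202 it held 119, 112 and 115 CPM at day 0, 65.1, 66.8 and 64.1 CPM at day 1, 70.7, 74 and 71.2 CPM at day 3 and 113, 141 and 124 CPM at day 6. The day 1 and day 3 libraries lay below both day 0 and day 6, which overlapped. At day 1 GLK2 fell in all 4 series, by 0.65 to 0.90 on the log2 scale. From day 3 to day 6 it rose in all 4, by 0.51 to 0.81. That step was lost in M202(Sub1) without replicate 3 of day 6, in non-elongating leaves (0.33, adjusted p = 0.149) and in elongating leaves (0.37, adjusted p = 0.0574). The day 6 changes of M202(Sub1) from day 0, -0.24 in non-elongating and -0.18 in elongating leaves, were not called (adjusted p = 0.0937 and 0.201). Without replicate 3 of day 6 both were called lower (-0.42 and -0.34, adjusted p = 0.00487 and 0.0252). In elongating leaves of M202 the day 6 value stood above day 0 by 0.32 ± 0.12 (adjusted p = 0.0199), although the libraries overlapped. This call was lost without replicate 2 or 3 of day 0 or replicate 1 or 3 of day 6 (adjusted p 0.0605 to 0.234, weakest 0.19), and when the groups were fitted alone (0.30, adjusted p = 0.0938).

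The listed targets of GLK factors form 2 lists, antenna proteins and chlorophyll synthesis. None of 11 antenna protein genes was called higher in any of the 12 comparisons. All 11 fell on each of the 3 days in elongating leaves of M202(Sub1), with medians of -1.31, -1.27 and -1.72, and all 11 fell at day 6 in elongating leaves of M202, with a median of -2.00. In non-elongating leaves 3 of the 11 fell at day 1 in each genotype, where 26.4% of all tested genes were called lower in M202 and 28.8% in M202(Sub1). At day 6, 10 fell in each, against 26.7% and 25.1%, and the median was -1.08 in M202 and -0.71 in M202(Sub1). The median over all tested genes lay between -0.02 and 0.06 throughout. Over the 12 comparisons, 25.9 to 27.9% of all tested genes were called higher and 23.9 to 28.8% lower, which applies to the counts of both lists. LHCB3, an antenna protein of photosystem II, fell in all 12 comparisons, by 1.05 to 2.41 on the log2 scale. The 11 chlorophyll synthesis genes were mixed. In non-elongating leaves 1, 3 and 3 rose and 4, 2 and 4 fell on days 1, 3 and 6 in M202, and 2, 1 and 1 rose and 2, 1 and 2 fell in M202(Sub1). Of the 11, 6 rose and 4 fell in elongating leaves of M202 at day 1, and 10 fell there at day 6. In elongating leaves of M202(Sub1) 8 fell at day 1 and none rose. DVR, a reductase of chlorophyll precursors, fell in all 12 comparisons, while CHLD, a subunit of magnesium chelatase, rose in 7 and fell in 1. The leaf marker RCA fell in the same comparisons; its part in these counts was not tested.

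**Figure D3:**
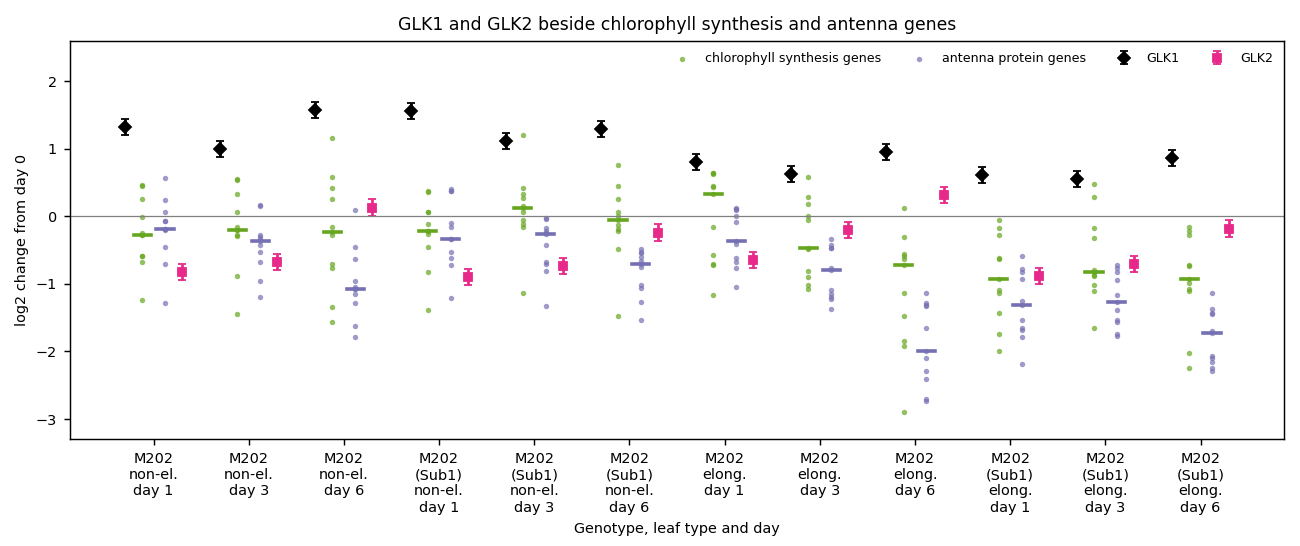
Log2 change from day 0 (y axis) of GLK1 and GLK2 (diamonds and squares, bars are ± SE), of 11 chlorophyll synthesis genes and of 11 antenna protein genes (small points, thick lines are medians) in the 12 comparisons (x axis). GLK1 lies above 0 in each, whereas the antenna medians lie below 0, down to -2.00 in elongating leaves of M202 at day 6.

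No difference between the genotypes was called in these genes before submergence. At day 0 none of the 9 was called in either leaf type, while 2.74% of all tested genes were called in non-elongating and 5.3% in elongating leaves; the smallest adjusted p of the 9 was 0.0804, for COP1 in elongating leaves (0.34 ± 0.12). SUB1B, a neighbour of SUB1A in the Sub1 locus, differed at day 0, at 11 ± 3.56 CPM in M202(Sub1) and 27.3 ± 4.09 CPM in M202 in non-elongating leaves (-1.31 ± 0.20, adjusted p = 5.67e-06). The locus carried by each library was not tested. Under water, 12 differences were called higher and 3 lower in M202(Sub1), of 54 gene and comparison pairs. With RLE scaling the counts were 12 and 6, and with DESeq2 13 and 7. On days 1, 3 and 6, 3 of the 9 were called each day in non-elongating leaves, where 15%, 13.8% and 15.3% of all tested genes were. The numbers in elongating leaves were 1, 2 and 3, where 20.3%, 14.7% and 20.4% of all tested genes were called. By direction, 1.2 to 10.3% of all tested genes were called higher and 1.54 to 11.6% lower in the 8 genotype comparisons.

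CRY2 differed most often. It was higher in M202(Sub1) in all 6 submerged comparisons, by 0.84 ± 0.11, 0.77 ± 0.11 and 0.38 ± 0.11 on days 1, 3 and 6 in non-elongating leaves (adjusted p = 1.62e-07, 1.18e-06 and 0.0159) and by 0.71 ± 0.11, 0.85 ± 0.11 and 0.50 ± 0.11 in elongating leaves (adjusted p = 3.33e-06, 9.75e-08 and 7.18e-04). At day 3 the non-elongating libraries held 1050, 993 and 952 CPM in M202(Sub1) and 575, 607 and 583 CPM in M202, and the elongating ones 1080, 924 and 949 CPM against 552, 547 and 533 CPM. The genotypes stood apart in all 6. The call at day 6 in non-elongating leaves was lost without replicate 2 of M202 or replicate 1 or 3 of M202(Sub1) (adjusted p 0.0766 to 0.199, weakest 0.23), and when the groups were fitted alone (0.37, adjusted p = 0.308). The rise from day 0 was itself larger in M202(Sub1), by 0.88 ± 0.16 at day 1 and 0.80 ± 0.16 at day 3 in non-elongating leaves (adjusted p = 2.69e-04 and 8.34e-04), and by 0.67 ± 0.16 and 0.82 ± 0.16 in elongating leaves (adjusted p = 0.0033 and 5.60e-04). Of the 9, 3, 2 and 1 were called on days 1, 3 and 6 in these comparisons of the responses in non-elongating leaves, against 5.47%, 5.7% and 6.39% of all tested genes. In elongating leaves 1, 1 and 0 were called, against 11.2%, 5.63% and 6.39%. At day 6 the difference of the responses, 0.41 ± 0.16 and 0.47 ± 0.16, was not called (adjusted p = 0.127 and 0.0725). With DESeq2 that in elongating leaves was called (0.47, adjusted p = 0.013).

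**Figure D4:**
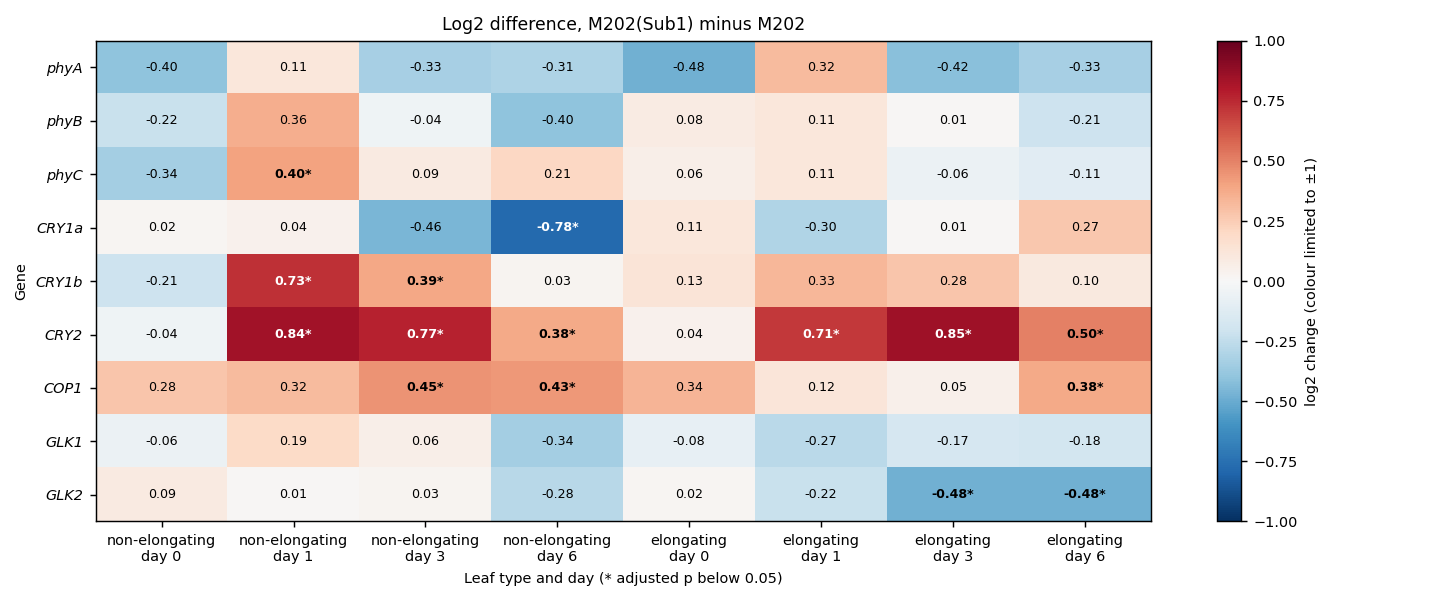
Log2 difference between the genotypes, M202(Sub1) minus M202 (colour, limited to ±1, and printed number), of each gene (rows) by leaf type and day (columns); a star and bold print mark an adjusted p below 0.05. Neither day 0 column has a star, and CRY2 has one in all 6 submerged columns, with values of 0.38 to 0.85.

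CRY1b was higher in M202(Sub1) in non-elongating leaves at day 1, by 0.73 ± 0.12 (adjusted p = 2.00e-05), with 208, 226 and 217 CPM against 143, 125 and 126 CPM. Its rise was larger there by 0.94 ± 0.18 (adjusted p = 4.02e-04). At day 3 the genotype difference of 0.39 ± 0.12 (adjusted p = 0.0258) was lost without any 1 of 5 of the 6 libraries, all but replicate 2 of M202(Sub1) (adjusted p 0.0524 to 0.23, weakest 0.27). In elongating leaves at day 1 the CRY1b difference of 0.33 was not called (adjusted p = 0.0509). It was called with the replicate block, with upper-quartile scaling and with the groups fitted alone (adjusted p = 0.0408, 0.0327 and 0.0162). COP1 was higher in M202(Sub1) by 0.45 ± 0.12 at day 3 (adjusted p = 0.00529) and 0.43 ± 0.12 at day 6 (adjusted p = 0.00833) in non-elongating leaves, and by 0.38 ± 0.12 at day 6 in elongating leaves (adjusted p = 0.0152). The COP1 difference of 0.32 at day 1 in non-elongating leaves was not called (adjusted p = 0.0563). With DESeq2, with upper-quartile scaling and with the groups fitted alone it was called (adjusted p = 0.0383, 0.0495 and 0.0198). No difference between the genotypes in its response to submergence was called in 6 tests (-0.29 to 0.17, adjusted p at least 0.364). The COP1 calls at day 6 were lost without replicate 1 of M202 or replicate 3 of M202(Sub1) in non-elongating leaves (adjusted p 0.0943 to 0.105, weakest 0.28), and without replicate 3 of M202 or replicate 1 or 3 of M202(Sub1) in elongating leaves (adjusted p 0.0622 to 0.072, weakest 0.34). The former was also lost when the groups were fitted alone (0.41, adjusted p = 0.226).

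GLK2 was lower in M202(Sub1) in elongating leaves, by -0.48 ± 0.12 at day 3 (adjusted p = 0.00352) and -0.48 ± 0.12 at day 6 (adjusted p = 0.00194). The day 3 libraries held 64.6, 59 and 62.4 CPM in M202(Sub1) and 93.1, 86.1 and 80.6 CPM in M202, without overlap. The difference of the responses, -0.50 ± 0.17 on both days, was not called (adjusted p = 0.0748 and 0.0621). With DESeq2 the day 6 difference was called (-0.50, adjusted p = 0.0413). In non-elongating leaves at day 6 the genotype difference of GLK2, -0.28, was not called (adjusted p = 0.111). Without replicate 1 of M202 or replicate 3 of M202(Sub1) it was called (-0.36 and -0.46, adjusted p = 0.0481 and 0.00799). CRY1a was lower in M202(Sub1) in non-elongating leaves at day 6, at 68.5, 61 and 60.6 CPM against 102, 158 and 65.5 CPM (-0.78 ± 0.17, adjusted p = 5.29e-04). The lowest M202 library overlapped the M202(Sub1) libraries, and without replicate 2 of M202 the difference was -0.42 (adjusted p = 0.0525). Fitted alone, these groups gave -0.79 with adjusted p = 0.0907. phyC was higher in M202(Sub1) in non-elongating leaves at day 1 by 0.40 ± 0.14 (adjusted p = 0.0431), a call that was lost without any 1 of the 6 libraries (adjusted p 0.0518 to 0.214, weakest 0.32) and without the filter on low counts (0.39, adjusted p = 0.0588). phyA, phyB and GLK1 were called in none of the 8 genotype comparisons. Their differences lay between -0.48 and 0.36. In non-elongating leaves at day 6, GLK1 (-0.34, adjusted p = 0.0527) and phyB (-0.40, adjusted p = 0.0542) were called lower in M202(Sub1) with DESeq2 (adjusted p = 0.0121 and 0.033) and with RLE scaling (adjusted p = 0.0378 and 0.0407). The other added lower calls were CRY1a in non-elongating leaves at day 3 with both (adjusted p = 0.047 and 0.0484) and GLK1 in elongating leaves at day 1 with DESeq2 (adjusted p = 0.0381).

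The leaf types differed in several of these genes before submergence. At day 0 elongating leaves held more CRY2, at 181, 226 and 184 CPM against 112, 85.5 and 97.7 CPM in M202 (1.00 ± 0.12, adjusted p = 1.79e-09) and at 217, 206 and 185 CPM against 97.5, 92.7 and 97.5 CPM in M202(Sub1) (1.08 ± 0.12, adjusted p = 2.78e-10). GLK1 was higher in them by 0.74 ± 0.12 and 0.71 ± 0.12 (adjusted p = 4.69e-06 and 8.44e-06) and phyB by 0.58 ± 0.15 and 0.88 ± 0.15 (adjusted p = 0.00196 and 5.59e-06). phyC and CRY1b were called higher in elongating leaves of M202(Sub1) at day 0, by 0.62 ± 0.14 and 0.58 ± 0.13 (adjusted p = 6.73e-04 and 3.51e-04). In M202 their differences of 0.22 and 0.24 were not called (adjusted p = 0.265 and 0.167). Both were called there without replicate 1 of non-elongating leaves (0.56 and 0.52, adjusted p = 0.0024 and 0.00212). phyB was called higher in elongating leaves in 5 of the 8 leaf type comparisons. At day 1 of M202 its difference, 0.51 to 0.68 over 12 alternative fits, was called in each. At day 3 it was called at 0.36 for M202 and 0.42 for M202(Sub1). Leaving out any 1 of 3 libraries ended either day 3 call (weakest 0.28 and 0.32), and DESeq2 ended that of M202. Also called in M202 under all 12 alternatives were phyC at day 1 (0.39 to 0.52) and GLK1 at day 3 (0.34 to 0.4). At day 0, 4 of the 9 were called between the leaf types in M202 and 6 in M202(Sub1), where 29.5% and 29.8% of all tested genes were. On days 1, 3 and 6, 4, 3 and 2 were called in M202, against 40.6%, 34.1% and 23.1%, and 3, 1 and 1 in M202(Sub1), against 29.7%, 21.4% and 17.8%. COP1 was the gene lower in elongating leaves at day 0, by -0.38 ± 0.12 in M202 (adjusted p = 0.00924) and -0.33 ± 0.12 in M202(Sub1) (adjusted p = 0.0272). The COP1 calls at day 0 were lost without replicate 3 of non-elongating or replicate 1 or 2 of elongating leaves in M202 (adjusted p 0.0532 to 0.153, weakest -0.25), and without replicate 1 or 3 of non-elongating or replicate 2 or 3 of elongating leaves in M202(Sub1) (adjusted p 0.0877 to 0.169, weakest -0.25). They were also lost when the groups were fitted alone (adjusted p = 0.137 and 0.0781), and that of M202(Sub1) without the filter on low counts (adjusted p = 0.0621).

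At day 1 the leaf types changed places for COP1. It was higher in elongating leaves in both genotypes at day 1, at 295, 314 and 276 CPM against at most 218 CPM in M202 (0.56 ± 0.12, adjusted p = 1.29e-04), and reached a difference of 0.71 ± 0.12 (adjusted p = 4.02e-06) in M202 at day 3. In M202(Sub1) it was 0.36 ± 0.12 at day 1 (adjusted p = 0.0169), lost without replicate 1 of elongating leaves (0.26, adjusted p = 0.121), and at day 3 the difference of 0.31 ± 0.12 was not called (adjusted p = 0.0555). At day 6 it was 0.37 ± 0.12 in M202 (adjusted p = 0.0157), where the libraries overlapped, and 0.33 ± 0.12 in M202(Sub1) (adjusted p = 0.0435). The former was lost without replicate 1 of either leaf type (adjusted p 0.0638 to 0.157, weakest 0.25) and when the groups were fitted alone (adjusted p = 0.181). The latter was lost without replicate 1 or 2 of non-elongating or 1 or 3 of elongating leaves (adjusted p 0.0943 to 0.142, weakest 0.30), with RLE or upper-quartile scaling (adjusted p = 0.0647 and 0.0702), and without the filter on low counts (adjusted p = 0.0894). The fall of COP1 was smaller in elongating than in non-elongating leaves on all 3 days in both genotypes, by 0.63 to 1.09 (adjusted p 3.83e-06 to 0.00583). The rise of CRY2 was likewise smaller in elongating leaves in all 6 tests, by -1.10 to -1.39 (adjusted p 1.23e-08 to 1.78e-06), and after day 0 CRY2 was not called higher in elongating leaves in either genotype. Over the 9 genes, 8 differences of the responses were called higher and 16 lower, of 54. By day, 4, 2 and 4 of the 9 were called in M202, against 15.8%, 13.7% and 10.4% of all tested genes, and 5, 5 and 4 in M202(Sub1), against 14%, 13.7% and 14.1%. The difference for COP1 at day 6 in M202, 0.76, was not called when the groups were fitted alone (0.71, adjusted p = 0.0951).

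No leaf type difference of CRY1a was called at day 0 (-0.14 ± 0.16 and -0.04 ± 0.16). At day 1 it was higher in elongating leaves of M202, at 75.7, 67.5 and 69.4 CPM against 35.4, 37.1 and 30.3 CPM (1.05 ± 0.17, adjusted p = 1.89e-06). In M202(Sub1) the difference at day 1 was 0.71 ± 0.18 (adjusted p = 0.00139). At day 6 it was lower in elongating leaves of M202 (-1.08 ± 0.17, adjusted p = 2.05e-06), with 46.2, 47.9 and 60.7 CPM against 102, 158 and 65.5 CPM. Without replicate 2 of non-elongating leaves, the library at 158 CPM, this difference was -0.71 (adjusted p = 3.23e-04). At the same day the difference in M202(Sub1) was -0.03 ± 0.17. phyA and GLK2 were called in none of the 8 leaf type comparisons, with differences of -0.53 to 0.27. The value of 0.27 for GLK2 in M202 at day 3 was called when the groups were fitted alone (adjusted p = 0.0376).

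**Figure D5:**
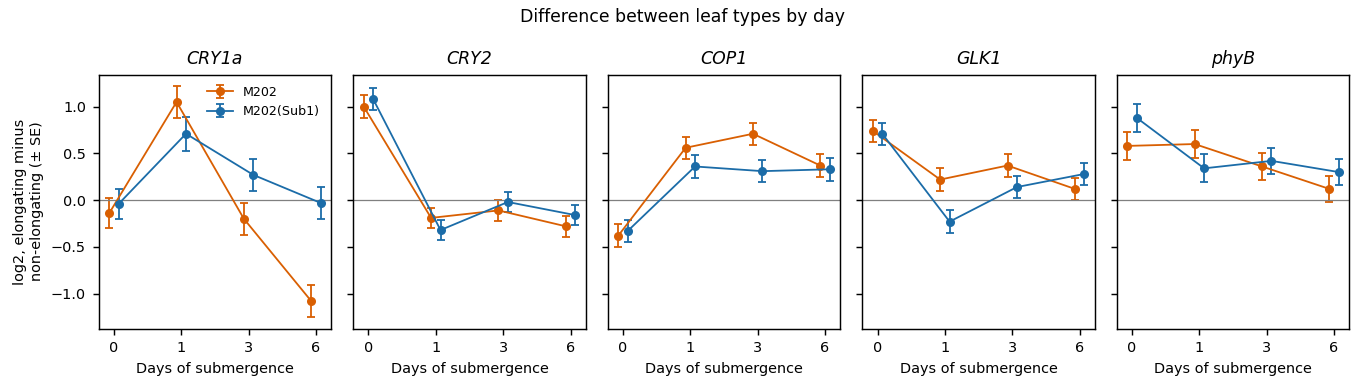
Log2 difference between elongating and non-elongating leaves (y axis, ± SE of the fit) against days of submergence (x axis, not to scale in time) for CRY1a, CRY2, COP1, GLK1 and phyB in M202 and M202(Sub1). COP1 passes from -0.38 and -0.33 at day 0 to 0.56 and 0.36 at day 1, and CRY2 from 1.00 and 1.08 to -0.19 and -0.32.

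Over the 16 groups the order of levels was set apart most clearly for CRY2, COP1, GLK1 and GLK2. For each of these, 11 of the 15 pairs of neighbouring groups in the order of means overlapped in their libraries, while for phyA, phyB and phyC all 15 did. The means of CRY2 spanned 95.9 to 1650 CPM, those of COP1 157 to 649 CPM, those of GLK1 351 to 1180 CPM and those of GLK2 54.6 to 126 CPM. Across the 16 group means of log2 CPM, CRY2 and CRY1b were the most alike of the 9, with a Pearson correlation of 0.975. The most unlike were phyC and GLK2, at -0.894, and CRY1a and CRY2, at -0.818. The listed gene most like CRY2 was PIL14 (0.923), the one most like phyC was PIL13 (0.916), and the one most like COP1 was PHOT2 (0.909). For CRY1b it was DDB1 (0.911) and for GLK1 it was PHOT1b (0.855). These correlations describe 16 means that share the step from air to water, and among all other tested genes 459 correlated with CRY2 above 0.9.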

How the data were processed

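Total RNA of 48 rice leaf samples was sequenced in read pairs. Per the submitters' processing notes, reads were aligned with STAR to IRGSP-1.0, counted with featureCounts, and DESeq2 was used; versions, strand setting and annotation release are not given in the sources used here. The authors deposited 1 table of whole-number read counts. Between 62.3 and 73.8% of a library's nonzero counts were even numbers, as when each mate of a pair is counted.

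Genes were kept with filterByExpr (minimum count 10, minimum total 15), leaving 21453 of 37830 genes, with 99.86% or more of every library's counts. TMM factors lay between 0.834 and 1.1. In R 4.3.3, edgeR 4.0.16 fitted a single quasi-likelihood model to the 16 groups, tested by F, which had 32 residual degrees of freedom and a common biological coefficient of variation of 0.152. Tests were two-sided, p-values were adjusted by Benjamini and Hochberg over all tested genes, and the threshold was 0.05. There were 12 comparisons with day 0, 8 of genotype, 8 of leaf type, 8 of day steps, and 6 each of the difference between genotypes' and between leaf types' responses. The procedure was run on simulated counts in which few genes changed, in a single group, with the same spread for every gene. In the submergence comparisons 49.9 to 56% of all tested genes were called, so that run does not cover them. Correlations use the 16 group means of log2 CPM with a prior count of 2. An SE holds the counting error together with the spread among libraries. Results were recomputed after leaving out single libraries (48 in turn), with DESeq2 1.42.0, with RLE or upper-quartile factors, with a replicate block, without the filter, and with only the compared groups in the model.

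The 9 genes, the other gene lists and the tests were chosen with earlier results of these data known. All 9 genes are described. Of the other lists, up to 2 genes with the smallest adjusted p in the comparison described are named, with those that bind or are targets of the 9. Gene names were checked in a RefSeq table of another assembly, by symbol and chromosome: 5 of the 9 (phyA, phyB, phyC, GLK1, GLK2) and 22 of 56 other entries matched, none disagreed, and the rest were not in it. Of the other 56 entries, 51 were tested.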

Additional observations from a re-analysis of the deposited data

Results flagged for a closer look

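The results here are differences between responses: the change from day 0 in 1 genotype or leaf type was tested against the same change in the other, in the edgeR fit of all groups. Values are log2 with the SE, and p is adjusted over all tested genes.

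Between the genotypes, CRY2 rose more in M202(Sub1) in non-elongating leaves at day 1 (0.88 ± 0.16) and day 3 (0.80 ± 0.16) and in elongating leaves at day 1 (0.67 ± 0.16) and day 3 (0.82 ± 0.16). These 4 calls held whichever library was left out. CRY1b rose more in M202(Sub1) in non-elongating leaves at day 1 (0.94 ± 0.18) and day 3 (0.60 ± 0.18, adjusted p = 0.033). The CRY1b call at day 3 was lost without any 1 of 9 of the 12 libraries, all but replicates 2 and 3 of M202 at day 0 and replicate 2 of M202(Sub1) at day 3 (adjusted p 0.0583 to 0.288, weakest 0.34). phyC rose more in M202(Sub1) in non-elongating leaves at day 1 (0.74 ± 0.20, adjusted p = 0.0177), which was lost without replicate 1 of M202 day 0, replicate 2 of M202 day 1, replicate 2 of M202(Sub1) day 0 or replicate 3 of M202(Sub1) day 1 (adjusted p 0.0568 to 0.215, weakest 0.43). CRY1a in non-elongating leaves at day 6 differed by -0.79 ± 0.23 (adjusted p = 0.0272), which was lost without replicate 3 of M202 day 0, replicate 2 of M202 day 6, replicate 2 of M202(Sub1) day 0 or replicate 2 of M202(Sub1) day 6 (adjusted p 0.0524 to 0.187, weakest -0.44). The 3 calls of phyC, of CRY1b at day 3 and of CRY1a were also lost when the groups were fitted alone.

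Between the leaf types (elongating minus non-elongating), CRY2 differed at days 1, 3 and 6 by -1.19, -1.12 and -1.29 in M202 and by -1.39, -1.10 and -1.24 in M202(Sub1), each ± 0.16. COP1 differed by 0.94, 1.09 and 0.76 in M202 and by 0.69, 0.63 and 0.65 in M202(Sub1), each ± 0.16 or 0.17. None of these 12 calls was lost without a single library; that of COP1 in M202 at day 6 was lost when the groups were fitted alone (0.71, adjusted p = 0.0951). GLK1 differed by -0.52 and -0.62 at days 1 and 6 in M202 and by -0.95 and -0.57 at days 1 and 3 in M202(Sub1), each ± 0.17, and the value of -0.95 was called whichever library was left out. The others of GLK1 were lost without 5 libraries for M202 day 1 (replicates 2 and 3 of non-elongating and 3 of elongating leaves at day 0, and 3 of non-elongating and 1 of elongating leaves at day 1; adjusted p 0.0553 to 0.109, weakest -0.43), without replicate 2 of non-elongating leaves at day 0 for M202 day 6 (-0.53, adjusted p = 0.0521), and without replicate 2 of non-elongating or 1 of elongating leaves at day 0 for M202(Sub1) day 3 (adjusted p 0.058 to 0.0684, weakest -0.49). Both GLK1 calls in M202 were also lost when the groups were fitted alone (adjusted p = 0.0738 at day 1 and 0.167 at day 6), and that at day 1 without the filter on low counts (adjusted p = 0.0664).

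CRY1a differed between the leaf types by 1.19 ± 0.24 at day 1 and -0.94 ± 0.23 at day 6 in M202, and by 0.75 ± 0.24 at day 1 in M202(Sub1) (adjusted p = 0.026). The day 6 value was -0.59 (adjusted p = 0.0477) without replicate 2 of non-elongating leaves at day 6, and it was lost when the groups were fitted alone (-0.98, adjusted p = 0.0936). The value in M202(Sub1) was lost without any 1 of 7 of the 12 libraries: replicate 2 of non-elongating and 1 and 2 of elongating leaves at day 0, and 1 and 2 of non-elongating and 2 and 3 of elongating leaves at day 1 (adjusted p 0.0506 to 0.097, weakest 0.65). CRY1b differed in M202(Sub1) by -0.71, -0.60 and -0.68 at days 1, 3 and 6, each ± 0.18, and the value at day 3 was lost without replicate 1 of non-elongating leaves at day 3 (-0.48, adjusted p = 0.0824). phyC differed in M202(Sub1) by -0.57 ± 0.20 at day 3 (adjusted p = 0.0495), lost without any 1 of 11 of the 12 libraries, all but replicate 2 of non-elongating leaves at day 3 (adjusted p 0.0501 to 0.139, weakest -0.49), without the filter (adjusted p = 0.0514) and with upper-quartile scaling (adjusted p = 0.0552), and by -0.85 ± 0.20 at day 6 (adjusted p = 0.00246).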

How the results depend on the processing

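Of 432 gene and comparison pairs, 414 kept their call with DESeq2, 402 when the compared groups were fitted alone and 418 without the filter on low counts, and no called change turned its direction under any alternative. All submergence calls of CRY1a, CRY1b, CRY2, COP1 and GLK1 held whichever library was left out. Genotype calls lower in M202(Sub1), over pairs of gene and comparison, numbered 3 as reported, 7 with DESeq2 and 6 with RLE scaling. Genotype by submergence calls below 0 numbered 1, 2 with DESeq2 and 0 with the groups fitted alone. Leaf type calls below 0 numbered 4, and 2 both with the groups fitted alone and without the filter. With 1 library left out, the ranges of higher and lower calls were 54 to 59 and 31 to 32 for submergence, 10 to 14 and 3 to 6 for genotype, 19 to 24 and 3 to 5 for leaf type, 12 to 15 and 9 to 14 for day steps, 5 to 8 and 0 to 3 for genotype by submergence, and 7 to 9 and 14 to 20 for leaf type by submergence. The causes were not tested.

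Over all pairs of groups pooled, samples with the same replicate number did not deviate together (correlations -0.214 to 0.272, median 0). On average, 21 of 48 libraries correlated best with their own number. A pairing of elongating with non-elongating leaves of the same genotype, day and number was not tested separately. The leaf type tests reported were unpaired. With the replicate number as a block, the submergence calls stayed at 58 higher and 31 lower, and those of genotype were 13 higher and 3 lower. phyA, with 18 to 109 counts per library, is limited most by depth.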
